A study of Mus musculus with 10 samples.

Results

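Messenger RNA of 49 genes for tubulins and the proteins that fold, assemble and modify tubulin was followed through early mouse spermatogenesis on microarrays. The genes were chosen by symbol alone from the 18196 genes on either array design: the α-, β-, γ-, δ- and ε-tubulins, the γ-tubulin complex proteins (Tubgcp), the tubulin folding cofactors Tbca to Tbce, the tubulin tyrosine ligase-like (TTLL) enzymes with Ttl, the cytosolic carboxypeptidases (Agbl genes and Agtpbp1), and the pair Atat1 and Hdac6. By class they were 7 α-tubulins, 9 β-tubulins, 4 other tubulins, 5 complex proteins, 5 cofactors, 13 TTLL enzymes including Ttl, 4 carboxypeptidases and 2 acetylation enzymes. Of the 49 genes, 46 had a probe set of their own, and Tuba1b, Tuba1c and Tuba3a were read only by probe sets that also name another gene. Of those 46, 45 were above the signal floor in at least 1 group, 31 were above it in all 5 groups, and Tubg2 was below it in every group.

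The 5 groups were all from C57BL/6 males. Spermatogonia were fraction 2 of a Percoll density gradient of dissociated testes at day 8 of age, leptotene/zygotene spermatocytes were fraction 5 at day 12, and pachytene spermatocytes were fraction 8 at day 15. Whole testis and a mixture of 11 somatic tissues (skin, muscle, brain, spleen, kidney, liver, heart, lung, colon, intestine and stomach, called the somatic mix here) were taken at day 15. No group carried a mutation or a treatment, and the title of the study names a search for genes of meiotic chromosome segregation. Each group had 2 samples, but sample 1 was hybridised to one array design and sample 2 to its companion with other probe sets, so a probe set has 1 array per group (n = 1).

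Microtubules are built from dimers of an α- and a β-tubulin, and their flexible carboxy-terminal tails are edited after synthesis. TTLL enzymes add glutamate or glycine chains or, in the case of Ttl, the terminal tyrosine, cytosolic carboxypeptidases trim glutamates, and Atat1 and Hdac6 add and remove an acetyl group inside the microtubule. In male germ cells microtubules form the meiotic spindle and, later, the manchette and the flagellar axoneme, whose tubulin is rich in these marks.

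The deposited values are intensities, which were scaled to a common trimmed mean within each design and are called signals below. Signals cannot be set against each other between genes, because each probe set has its own brightness. The floor was 87.2 on the first design and 47.0 on the second, and a difference against a signal at the floor is a lower bound. A gene is said to have risen or fallen where its signal differed at least 4-fold (2 on the log2 scale) between 2 groups, and to be higher or lower where the difference exceeded the 95% error limit. That limit, from the 100 probe sets placed on both designs, was a log2 difference of 0.35 in leptotene/zygotene over spermatogonia, 0.41 in pachytene over leptotene/zygotene, 0.46 in pachytene over whole testis and 0.57 in whole testis over somatic mix. This limit rests on the same probe sets read on both designs and does not cover disagreement between different probe sets of a gene. For Tubb6, for example, different probe sets gave -1.25 and -0.05 in leptotene/zygotene over spermatogonia. With 1 array per group these calls have no test. In bulk RNA a lower share of a cell type and a lower RNA level per cell cannot be told apart.

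Marker genes set the frame for the fractions. The summed signal of 9 pachytene markers was 666 in spermatogonia, 3859 in leptotene/zygotene, 71139 in pachytene, 36001 in whole testis and 594 in the somatic mix. Markers of Sertoli cells, the somatic nurse cells of the tubule, were not absent from the germ cell fractions: all 12 were above the floor in spermatogonia and leptotene/zygotene, and their summed signal was 38939, 34027 and 9016 in the 3 successive fractions, 25192 in whole testis and 4688 in the somatic mix. Summed spermatogonial markers were at 5945 in spermatogonia, 11091 in leptotene/zygotene and 1430 in pachytene. Of 6 spermatid markers Tnp1, Tnp2 and Prm2 were below the floor in all groups, and Prm1 was at 91.1 in pachytene and 80.8 in leptotene/zygotene. The others rose: Tssk1 had 553 in pachytene, 79.8 in leptotene/zygotene and 284 in whole testis, and Tekt5 had 270 in pachytene, 3.27 in leptotene/zygotene and 32.5 in whole testis. Both were lower bounds, of 2.66 and 2.52 on the log2 scale for pachytene over leptotene/zygotene.

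Of the 4 comparisons, pachytene over leptotene/zygotene gave the most 4-fold calls among the members. Of 42 measured genes 10 rose and 3 fell, beside 8.70% of all measured genes that rose and 9.32% that fell. Beyond the error limit 18 were higher and 17 lower in pachytene, with 7 within it, where 30.1% of all genes were higher and 44.0% lower. Under median scaling 10.7% of all genes rose and 5.33% fell, and with scaling to the shared probe sets 11.3% rose and 4.43% fell. The median log2 difference was 0.21 over the measured members and -0.22 over all genes. The 10 that rose were 6 TTLL enzymes, 3 carboxypeptidases and the δ-tubulin Tubd1, and the 3 that fell were Hdac6 and the β-tubulins Tubb3 and Tubb6. Most classes held members that differed in either direction, and differences between classes were not tested. Class medians were 2.94 for the carboxypeptidases, 2.05 for the TTLL enzymes, 0.33 for the folding cofactors, -0.64 for the γ-, δ- and ε-tubulins, -0.73 for the γ-tubulin complex, -0.80 for the β-tubulins, -1.14 for the α-tubulins and -2.39 for the acetylation pair, on the log2 scale.

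**Figure D1:**
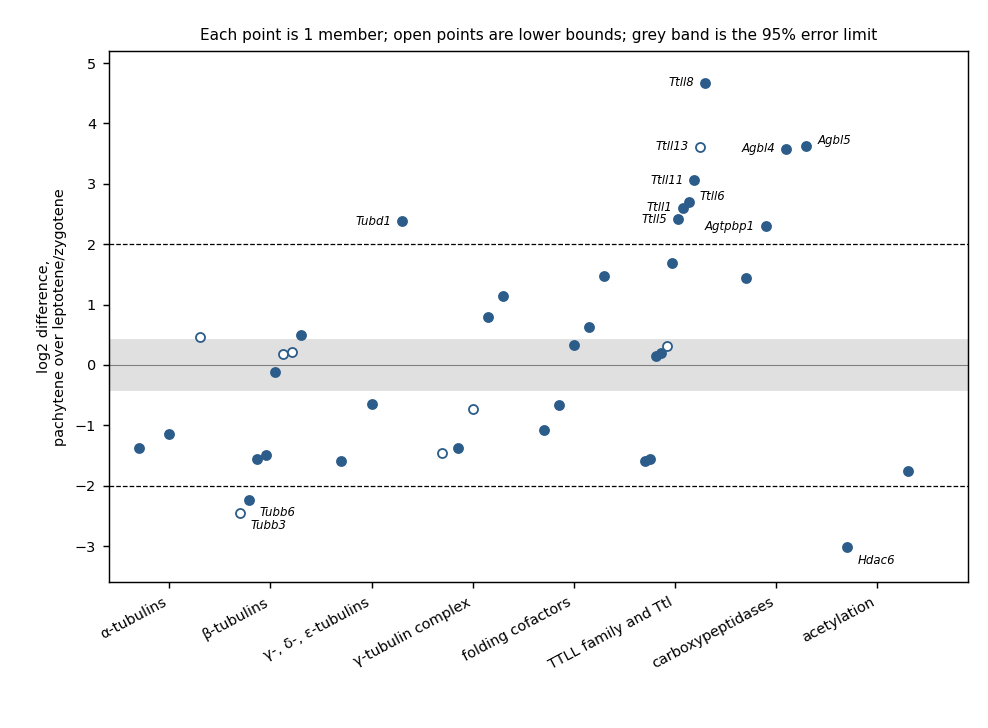
Log2 difference in signal, pachytene over leptotene/zygotene, for the 42 measured members, grouped by class on the x axis. Each point is 1 gene read from 1 array per group, open points are lower bounds, the grey band is the 95% error limit of 0.41 and the dashed lines mark 4-fold. The 10 named points above the upper line are 6 TTLL enzymes, 3 carboxypeptidases and Tubd1.

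Among the TTLL enzymes the glycylase Ttll8, which starts glycine chains, had the widest difference. Its signal was 55.3 in spermatogonia, 221 in leptotene/zygotene, 5643 in pachytene, 2005 in whole testis and 49.5 in the somatic mix. Ttll8 was thus near the floor in spermatogonia and in the somatic mix, and pachytene stood highest. The log2 difference was 4.68 for pachytene over leptotene/zygotene (25.6-fold) and 5.34 for whole testis over somatic mix (40.5-fold). It was 2.00 for leptotene/zygotene over spermatogonia, just under the 4-fold line, and Ttll8 has 1 probe set. The other glycylases, Ttll3 and the chain-lengthening Ttll10, were within the error limit in pachytene over leptotene/zygotene.

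Of the polyglutamylases, 5 rose in pachytene over leptotene/zygotene, where 8.70% of all measured genes rose. Ttll13 had a signal of 2.79 in spermatogonia, 19.6 in leptotene/zygotene, 576 in pachytene, 250 in whole testis and 6.34 in the somatic mix. It was below the floor everywhere but in pachytene and whole testis, and was at least 12.3-fold higher in pachytene than in leptotene/zygotene. Its other probe sets were not measured in that comparison, and with the mean over all its probe sets the log2 difference was 0.13, so the call rests on 1 probe set. Ttll6, which lengthens glutamate chains on α-tubulin, had signals of 62.1, 115 and 752 in spermatogonia, leptotene/zygotene and pachytene, 216 in whole testis and 118 in the somatic mix. Ttll6 was 6.53-fold higher in pachytene than in leptotene/zygotene, read by its single probe set.

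Ttll1, the catalytic subunit of a multi-protein polyglutamylase, had signals of 199, 225 and 1368 in spermatogonia, leptotene/zygotene and pachytene, 784 in whole testis and 521 in the somatic mix. Ttll5, a glutamylase known to be needed for mouse sperm function, had signals of 528, 507 and 2700 in the same fractions, 1425 in whole testis and 291 in the somatic mix. Both were level between the first fractions, within the error limit, and stood highest in pachytene, at log2 differences of 2.61 for Ttll1 and 2.41 for Ttll5 over leptotene/zygotene. A further probe set of Ttll1 gave 2.72 and a further one of Ttll5 gave 1.90. The Ttll5 call was lost under quantile normalization (1.67) and with the mean over its probe sets (1.54).

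Ttll11 had signals of 56.9, 62.7 and 525 in spermatogonia, leptotene/zygotene and pachytene, 123 in whole testis and 114 in the somatic mix. This glutamylase was 8.37-fold higher in pachytene than in leptotene/zygotene and 4.27-fold higher in pachytene than in whole testis. Its probe sets disagreed. In pachytene over leptotene/zygotene the other 3 differed by between -0.22 and 0.95 on the log2 scale, only 1 of them in the same direction. Of these, 0.95 and -0.11 are bounds, against 35.3 in leptotene/zygotene and 28.4 in pachytene, both below the floor. The mean over the probe sets gave 0.84. Ttll9 was higher without reaching 4-fold, at 1.69.

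The TTLL enzymes did not move as one. Ttll4, a β-tubulin glutamylase, had signals of 514, 425 and 141 in spermatogonia, leptotene/zygotene and pachytene, 666 in whole testis and 132 in the somatic mix. Ttll4 was lower in pachytene than in leptotene/zygotene (log2 -1.59), fell in pachytene against whole testis (-2.24), and rose in whole testis against the somatic mix (2.33). Ttll12 was lower too (-1.56), with 844, 627 and 213 in the successive fractions. In pachytene over leptotene/zygotene other measured probe sets gave -0.20 for Ttll12 and -0.40 and -0.32 for Ttll4, all within the error limit. Ttl, which restores the terminal tyrosine of α-tubulin, had its difference earlier, with 301 in spermatogonia, 105 in leptotene/zygotene and 120 in pachytene. A further Ttl probe set gave -0.43 in leptotene/zygotene over spermatogonia, where the one read gave -1.52. Of the 13 enzymes 7 had their highest signal in pachytene (53.8%), against 24.9% of all genes above the floor.

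All 4 carboxypeptidases read here were higher in pachytene than in leptotene/zygotene, beside 30.1% of all genes, and 3 rose, beside 8.70%. All 4 had their highest signal in pachytene, against 24.9% of all genes above the floor. Agbl1 and Agbl2 of the same family were not read. Agbl5, which removes the branch-point glutamate, had signals of 278, 387 and 4767 in spermatogonia, leptotene/zygotene and pachytene, 1529 in whole testis and 181 in the somatic mix. The log2 difference was 3.62 for pachytene over leptotene/zygotene (12.3-fold) and 3.08 for whole testis over somatic mix. Its other probe sets gave 3.12, on the second design, and 4.99, on the first, in pachytene over leptotene/zygotene. Agbl5 was one of 3 members above the floor on both designs, which allowed a test with limma over all 10 arrays and 2610 genes with the array design as a block. In that test Agbl5 was higher in pachytene than in leptotene/zygotene by 3.37 (SE 0.47, adjusted p = 0.014, higher on 2 of 2 designs), where 2.61% of the genes were called higher and 6.67% lower. With no replicate block the same difference had an adjusted p of 0.80. The difference of whole testis over somatic mix was 2.39 (SE 0.47, limma adjusted p = 0.051), and on the second design alone the signal difference was 1.71, below 4-fold.

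Agbl4, which shortens glutamate chains, had signals of 51.8, 53.4 and 639 in spermatogonia, leptotene/zygotene and pachytene, 98.8 in whole testis and 81.2 in the somatic mix. On this probe set Agbl4 was low outside pachytene, 12.0-fold higher in pachytene than in leptotene/zygotene and 6.46-fold higher than in whole testis. Its 3 other measured probe sets gave log2 differences from 0.14 to 5.01 in pachytene over leptotene/zygotene, 2 of them past 4-fold. Of these, 0.14 and 5.01 are lower bounds, with leptotene/zygotene below the floor at 3.12 and 42.0. The mean over the probe sets gave 1.96. The probe set that gave 5.01 read 528 in whole testis and 16.2 in the somatic mix, at least 3.49 higher in whole testis on the log2 scale, and was 1.52 higher in pachytene than in whole testis. Agtpbp1, the carboxypeptidase whose loss causes Purkinje cell degeneration and male infertility in mice, had signals of 76.7, 221 and 1091 in the successive fractions, 585 in whole testis and 262 in the somatic mix. Agtpbp1 was higher at each stage, at least 2.54-fold higher in leptotene/zygotene than in spermatogonia and 4.93-fold higher in pachytene than in leptotene/zygotene. A dimmer probe set of Agtpbp1 gave a lower bound of 0.09, with 31.8 in leptotene/zygotene, below the floor, and 92.6 in pachytene. The mean over probe sets gave 1.87 and the values as deposited 1.96. Agbl3 was higher by 1.44 with no call.

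**Figure D2:**
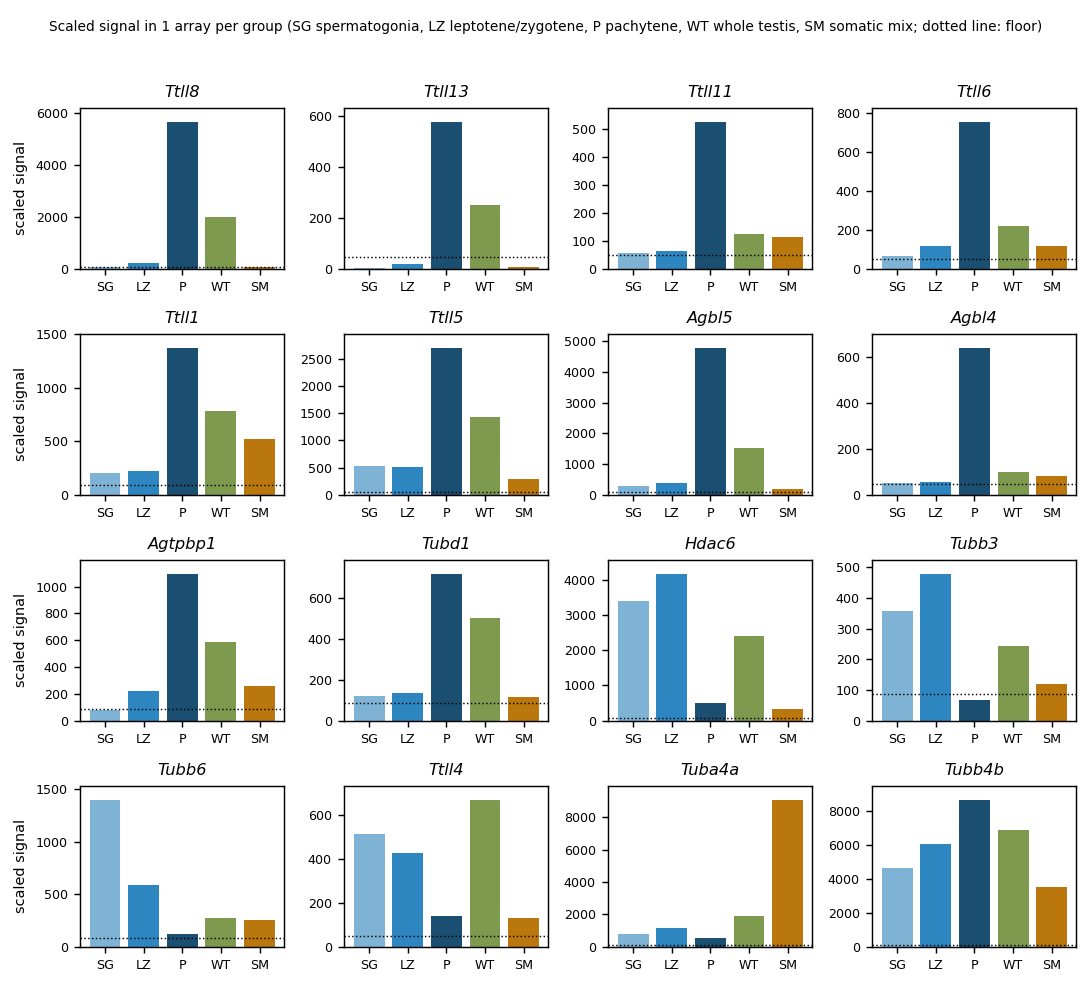
Scaled signal (y axis, linear from 0, own scale per gene) of 16 members in spermatogonia (SG), leptotene/zygotene (LZ), pachytene (P), whole testis (WT) and the somatic mix (SM). Each bar is 1 array and the dotted line is the floor of the design. Ttll8, Ttll13, Agbl4 and Agbl5 stand far above their other groups in pachytene, Tubb3 and Tubb6 have their lowest values there, Hdac6 is lower there than in every group but the somatic mix, and Tuba4a is highest in the somatic mix.

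Outside the enzymes, only the δ-tubulin Tubd1, a tubulin tied to the triplet microtubules of centrioles, rose. Tubd1 had signals of 120, 138 and 716 in spermatogonia, leptotene/zygotene and pachytene, 501 in whole testis and 118 in the somatic mix. It was 5.19-fold higher in pachytene than in leptotene/zygotene and 4.23-fold higher in whole testis than in the somatic mix, from 1 probe set. With the floor at the 60th percentile these log2 differences were 1.67 and 1.16, and scaling to the probe sets on both designs also took the second below 4-fold. Values in pachytene moved with the stage markers: all 9 pachytene markers rose there against leptotene/zygotene. Summed spermatid markers were 987 in pachytene and 226 in leptotene/zygotene, where all 6 were below the floor, and only Tssk1 and Tekt5 rose. The part of cell composition in the member differences was not tested.

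The promoters of the genes that rose in pachytene over leptotene/zygotene were examined for short motifs. They were grouped by that call alone, and in whole testis over somatic mix their log2 differences ran from 0.10 (Ttll11) to 5.34 (Ttll8). MYBL1 is a MYB factor known as a regulator of the male pachytene program, and RFX factors are known regulators of ciliary genes. Windows from 250 bases before to 50 bases after each annotated start (RefSeq, GRCm38.p6) were searched on both strands for the MYB motif AACNGNC and the RFX motif GTTGCC, where N is any base. A window was available for 42 members, among them 8 of the 10 genes that rose (not Ttll1 and Ttll11) and 2 of the 3 that fell (not Tubb6). The MYB motif was in at least 1 window of 7 of the 8 genes that rose (87.5%), all but Tubd1, in 0 of the 2 that fell, in 2 of the 3 read only with another gene, Tuba1c and Tuba3a, in 8 of 29 other members (27.6%) and in 36.0% of 27025 genes of the table. The RFX motif was in 3 of the 8, in 0 of the 2, in 1 of the 3, in 7 of the 29 and in 14.1% of all genes. Several windows of 1 gene overlap and count once in these shares. A match is a run of letters and not a measured binding site.

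The 250 bases before the start are shown for Ttll8, Ttll6, Ttll13 and Agbl5, the genes whose MYB motif lies before the start and whose difference was wide, chosen after their values were seen, with motif letters in capitals, each written 5′ to 3′ on the strand of its gene in GRCm38.p6.
Ttll8, chr15:88954419-88954668, minus strand: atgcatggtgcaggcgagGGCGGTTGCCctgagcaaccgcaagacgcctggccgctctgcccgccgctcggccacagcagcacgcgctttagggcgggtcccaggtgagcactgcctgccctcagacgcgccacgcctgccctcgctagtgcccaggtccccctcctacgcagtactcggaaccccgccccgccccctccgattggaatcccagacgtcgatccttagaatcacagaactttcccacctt
Ttll6, chr11:96133536-96133785, plus strand: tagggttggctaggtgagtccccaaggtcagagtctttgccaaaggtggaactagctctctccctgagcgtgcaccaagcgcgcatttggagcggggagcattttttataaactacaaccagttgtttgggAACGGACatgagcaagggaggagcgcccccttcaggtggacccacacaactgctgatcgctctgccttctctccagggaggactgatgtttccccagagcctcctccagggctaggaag
Ttll13, chr7:80246126-80246375, plus strand: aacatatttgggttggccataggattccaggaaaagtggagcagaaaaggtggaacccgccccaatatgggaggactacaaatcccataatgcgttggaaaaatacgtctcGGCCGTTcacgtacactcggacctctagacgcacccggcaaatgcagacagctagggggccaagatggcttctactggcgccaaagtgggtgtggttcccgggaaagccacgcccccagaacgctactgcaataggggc
Agbl5, chr5:30888602-30888851, plus strand: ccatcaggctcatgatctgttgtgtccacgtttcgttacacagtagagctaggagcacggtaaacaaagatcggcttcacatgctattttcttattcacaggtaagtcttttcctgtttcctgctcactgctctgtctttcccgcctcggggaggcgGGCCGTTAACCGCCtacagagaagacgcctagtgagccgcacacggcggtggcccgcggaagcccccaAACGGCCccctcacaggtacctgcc
In Ttll8 the MYB motif, read on the opposite strand from position -232, overlaps the RFX motif from position -228. Agbl5 holds 3 MYB matches, from -93, -86 and -25, of which the first pair adjoin each other. Ttll6 has 1 from -119 and Ttll13 has 1 from -139. Positions count from the annotated start, and the MYB matches of Agbl4 and Ttll5 and 1 MYB match each of Ttll8 and Agtpbp1 lie after it.

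**Figure D3:**
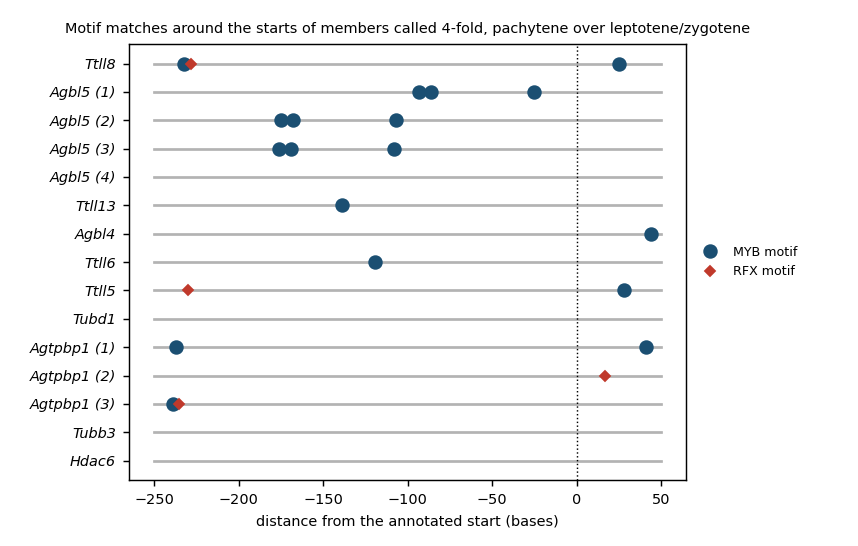
Motif matches (MYB, circles; RFX motif, diamonds) by distance in bases from the annotated start, for the members that rose or fell in pachytene against leptotene/zygotene and had a window. Each grey line is 1 window, and bracketed numbers only tell apart the windows of a gene. Circles appear in 10 of the 13 windows of the genes that rose, beside 32.8% of all windows, and in neither window of the genes that fell, Tubb3 and Hdac6. Overlapping windows of a gene, as in Agbl5, show the same matches more than once.

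The acetylation pair was lower in pachytene. Hdac6, a tubulin deacetylase, had signals of 3398, 4155 and 512 in spermatogonia, leptotene/zygotene and pachytene. Its signal was 2402 in whole testis and 338 in the somatic mix. Hdac6 was bright in the first fractions and dim in pachytene, 8.11-fold lower than in leptotene/zygotene and 4.69-fold lower than in whole testis, yet 7.10-fold higher in whole testis than in the somatic mix. The fall against whole testis was -1.87 under median scaling, below 4-fold. Hdac6 lies on the X chromosome, which is known to be silenced in pachytene spermatocytes. In pachytene over leptotene/zygotene the median was -1.62 over 438 X-linked genes, 40.2% of which fell, and -0.18 over 13054 autosomal genes, 8.29% of which fell. The part of X linkage in the Hdac6 value was not tested. Sirt2, a further tubulin deacetylase that is not a member, went the other way, with 460 in leptotene/zygotene and 1501 in pachytene (log2 1.71). Atat1, the acetyltransferase, lies on chromosome 17 and had signals of 226, 165 and 49.0 in the successive fractions, 163 in whole testis and 89.2 in the somatic mix, a log2 difference of -1.75 over leptotene/zygotene.

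Of 8 measured β-tubulins 4 were lower in pachytene than in leptotene/zygotene, 2 of them past 4-fold, and these counts stand beside 44.0% of all genes that were lower and 9.32% that fell. Tubb6 had signals of 1394, 588 and 125 in spermatogonia, leptotene/zygotene and pachytene, 271 in whole testis and 254 in the somatic mix. The log2 difference was -1.25 for leptotene/zygotene over spermatogonia and -2.23 for pachytene over leptotene/zygotene. For the first of these the second design gave -0.05 and the limma test over both designs -0.65 (SE 0.70, adjusted p = 1). For pachytene over leptotene/zygotene the second design gave a bound of -0.57, as its pachytene signal of 5.71 was below the floor. The limma test over both designs, which takes in this bound, gave -1.40 (SE 0.70, adjusted p = 0.25). Quantile, median and shared probe set scaling gave -1.72, -1.86 and -1.81. Tubb3, the neuronal β-tubulin, had signals of 359, 478 and 66.2 in the successive fractions, 245 in whole testis and 118 in the somatic mix. Tubb3 was below the floor in pachytene alone, at least 5.48-fold lower than in leptotene/zygotene, while the bound was a log2 difference of -1.09 with the floor at the 60th percentile.

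The broad β-tubulin Tubb5 had signals of 5849, 4518 and 1610 in the successive fractions, 3626 in whole testis and 3807 in the somatic mix, and was lower in pachytene than in leptotene/zygotene (log2 -1.49). Tubb2a, a β-tubulin abundant in brain, had 567, 295 and 101 in the successive fractions, 471 in whole testis and 1415 in the somatic mix, and fell only in pachytene against whole testis (log2 -2.23). That call was lost under quantile normalization, median scaling and the higher floor. Tubb4b, a main β-tubulin of axonemes, went the other way with 4653, 6076 and 8617 in the successive fractions, 6859 in whole testis and 3533 in the somatic mix. It was the only measured β-tubulin higher in pachytene than in leptotene/zygotene, by 0.50 (1.42-fold), but by 0.27 under quantile normalization and 0.16 with the values as deposited, within the error limit.

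Among α-tubulins Tuba1a, a main form of dividing and neuronal cells, had signals of 7933, 6643 and 2550 in spermatogonia, leptotene/zygotene and pachytene, 6705 in whole testis and 6025 in the somatic mix. Tuba1a was lower in pachytene than in leptotene/zygotene (log2 -1.38), read by 1 probe set. A further probe set, which names Tuba1a with another gene, was below the floor in every group. Tuba4a, the α-tubulin made without a terminal tyrosine, had 778, 1135 and 515 in the successive fractions, 1892 in whole testis and 9032 in the somatic mix. Tuba4a fell 4.77-fold in whole testis against the somatic mix. Tuba8 had 83.0, 37.2 and 121 in the fractions, 93.1 in whole testis and 425 in the somatic mix, and fell 4.57-fold in the same comparison.

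Probe sets that name a pair of genes are given as joint readings, attributed to neither gene and not counted above. Those that name Tuba3a and Tuba3b, the α-tubulins known from testis, had 2737, 6796 and 16776 in spermatogonia, leptotene/zygotene and pachytene, 9748 in whole testis and 185 in the somatic mix in one case. In the other case they had 3566, 7355 and 13986 in the same fractions, 9127 in whole testis and 105 in the somatic mix. Both were higher at each stage, by log2 1.31 and 1.04 in leptotene/zygotene over spermatogonia and by 1.30 and 0.93 in pachytene over leptotene/zygotene, and were 52.8-fold and 86.8-fold higher in whole testis than in the somatic mix. The probe set of Tuba3b alone was at or below the floor in all groups but whole testis, at 134. The reading shared by Tuba1b and Gm5620 was 4773 in pachytene and 10308 in leptotene/zygotene, and the brighter one shared by Tuba1c and Gm6682 was 293 in pachytene and 940 in leptotene/zygotene.

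Somatic cell markers moved with the lower tubulins. In pachytene against leptotene/zygotene all 12 Sertoli markers were lower and 7 fell, all 4 Leydig markers were lower and 2 fell, and 6 of 8 measured stromal markers were lower, while 5 of 6 macrophage markers were higher. Summed Sertoli markers were 9016 in pachytene and 34027 in leptotene/zygotene, summed Leydig markers 401 in pachytene and 4049 in leptotene/zygotene, and summed stromal markers 11392 in pachytene and 17964 in leptotene/zygotene. The part of these cells in the lower signals of Hdac6, Atat1, Ttll4, Ttll12 and the tubulins was not tested.

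**Figure D4:**
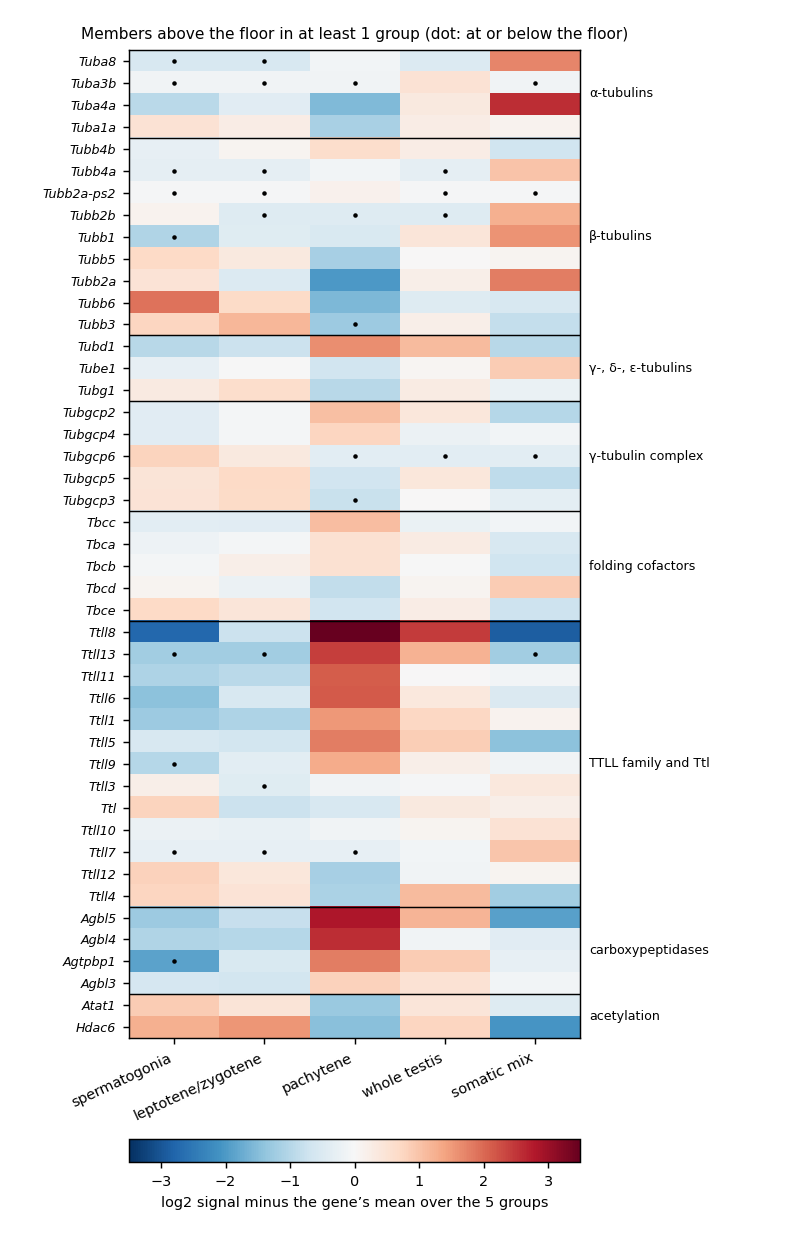
Signal of the 45 members above the floor in some group, as log2 signal (set to the floor where lower, with a dot) minus the mean of the gene over the 5 groups, by group (x axis) and gene (y axis, by class). Red is above and blue below the mean of the gene. Pachytene is red for 7 of the 13 TTLL enzymes and for all 4 carboxypeptidases, and blue for Hdac6, Atat1, Tuba1a, Tuba4a, Tubb2a, Tubb3, Tubb5 and Tubb6.

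The nucleation and folding genes other than Tubd1 had no 4-fold call. Tubg1, the γ-tubulin that starts new microtubules, had signals of 438, 536 and 178 in spermatogonia, leptotene/zygotene and pachytene, 428 in whole testis and 298 in the somatic mix, and was lower in pachytene than in leptotene/zygotene (log2 -1.59). Its complex partners divided: Tubgcp2 had 432, 538 and 1186 in the fractions, 753 in whole testis and 287 in the somatic mix, and was higher in pachytene than in leptotene/zygotene by 1.14. Tubgcp4 was higher by 0.80, though a further probe set of Tubgcp4 gave 0.32, within the error limit. Tubgcp3, Tubgcp5 and Tubgcp6 were lower, with log2 differences of -1.46, -1.37 and -0.73, of which the first and last are bounds. Tbca, which captures β-tubulin during folding, had 6414, 6923 and 10655 in the successive fractions, 8848 in whole testis and 4950 in the somatic mix, and was higher in pachytene by 0.62. The other Tbca probe sets gave 0.30, 0.21 and 0.30 in the same comparison, and the values as deposited 0.28, all within the error limit. Tbcc was higher (log2 1.47), but its other probe set gave a bound of -0.29, within the limit. Tbcd (-0.66) and Tbce (-1.08) were lower, and Tbcd was within the limit under median scaling (-0.29). None of the 5 cofactors and 5 complex proteins rose or fell in any of the 4 comparisons, where at most 8.70% of all genes rose and 9.32% fell, so a count of 0 among so few genes is near those shares.

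Few genes differed 4-fold between leptotene/zygotene and spermatogonia. Of 39 measured members 0 rose and 0 fell, beside 0.310% of all genes that rose and 0.279% that fell. Beyond the error limit 9 were higher and 9 lower, and 21 were within it, where 24.1% of all genes were higher and 22.2% lower. The 9 higher ones were Agbl5, Agtpbp1, Ttll6, Ttll8, Ttll9, Tuba4a, Tubb1, Tubb3 and Tubb4b, and the lowest value was that of Ttl (log2 -1.52). Scaling to the shared probe sets took Ttll8 past 4-fold. All 8 measured stromal and all 4 Leydig markers were lower in leptotene/zygotene, and of 12 Sertoli markers 4 were lower and 1 higher. Higher were 6 of 8 spermatogonial markers, with 0 lower, all 8 measured pachytene markers and 4 of 5 measured macrophage markers, with 1 lower. The part of cell composition in the member differences was not tested.

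Pachytene cells were also set against whole testis of the same age. Of 43 measured members 2 rose, Agbl4 and Ttll11, and 3 fell, Hdac6, Ttll4 and Tubb2a, beside 2.35% of all genes that rose and 4.39% that fell. Beyond the error limit 15 were higher and 19 lower, where 25.7% of all genes were higher and 38.1% lower. For the TTLL enzymes and carboxypeptidases that rose against leptotene/zygotene, the log2 difference of pachytene over whole testis ran from 0.80 (Ttll1) to 2.69 (Agbl4), with 1.49 for Ttll8 and 1.64 for Agbl5. With the mean over probe sets the log2 difference was 1.96 for Agbl4, 0.70 for Ttll11 and -0.78 for Ttll4, all below 4-fold, and the Ttll4 call was also lost under median scaling (-1.76) and with the values as deposited (-1.35). Both comparisons share the pachytene array.

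Whole testis against the somatic mix shows which members were testis-biased at day 15. Of 43 measured members 7 rose and 2 fell, beside 7.22% of all genes that rose and 5.70% that fell. Those that rose were Ttll8, Agbl5, Hdac6, Ttll13, Ttll4, Ttll5 and Tubd1, and those that fell were Tuba4a and Tuba8. Beyond the error limit 20 were higher and 9 lower, where 29.0% of all genes were higher and 30.6% lower. With the mean over probe sets the log2 difference was 0.02 for Ttll13, 1.79 for Ttll4 and 1.04 for Ttll5, below 4-fold. Other measured probe sets went either way, with -0.40 and 1.64 for Ttll4 and -0.60 and 1.42 for Ttll5. The limma test over both designs, where 0.843% of genes were called higher and 0.958% lower, called Tuba8 lower, with a log2 difference of -1.85 (SE 0.35, adjusted p = 0.049, lower on 2 of 2 designs), and with no replicate block its adjusted p was 0.85. The Tuba8 call of at least 4-fold was lost under median scaling, with the values as deposited, with the higher floor and on the second design alone, and that of Tuba4a under quantile normalization and with the mean over probe sets. Summed neural markers were 463 in whole testis and 4706 in the somatic mix, and 3 of the 6 measured fell. The part of brain RNA in the tubulin values was not tested.

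**Figure D5:**
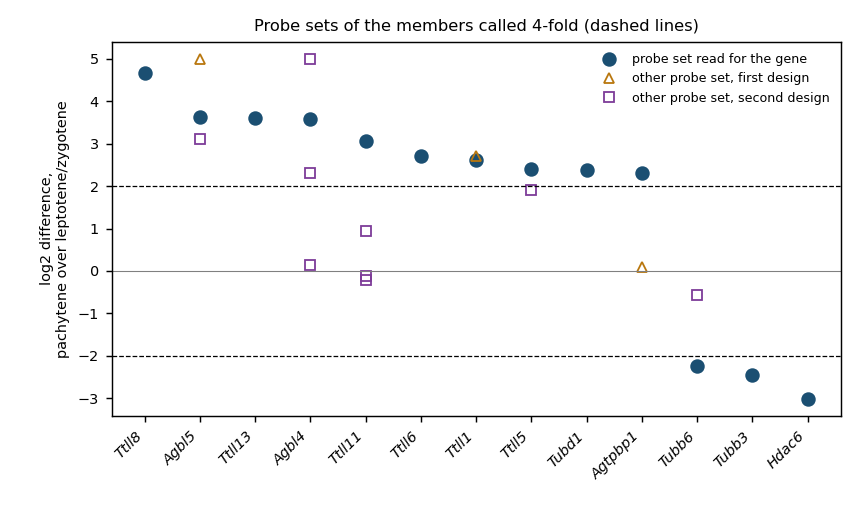
Log2 difference in signal, pachytene over leptotene/zygotene (y axis), of each measured probe set of the 13 members that rose or fell (x axis). Filled circles are the probe sets the genes were read from, triangles and squares are other probe sets on the first and second design, and dashed lines mark 4-fold. Of the 12 other probe sets 10 lie on the same side of 0 and 5 are past 4-fold. That of Agtpbp1 (0.09), 1 of Agbl4 (0.14) and 2 of Ttll11 (-0.22 and -0.11) are within the error limit. The other one of Ttll11 is at 0.95. Of these, 0.09, 0.14, -0.11 and 0.95 are bounds, as are 5.01 for Agbl4 and -0.57 for Tubb6.

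Other genes of the microtubule pathway, 52 by list and 45 on the arrays, showed a mixture of calls as well. In pachytene over leptotene/zygotene 8 of 40 measured rose and 3 fell, beside 8.70% of all genes that rose and 9.32% that fell. Nicn1, a subunit of the Ttll1 polyglutamylase complex, had 326, 227 and 1177 in the successive fractions and rose (log2 2.38), and all 4 subunits on the arrays were higher in pachytene than in leptotene/zygotene. Katnal2, a katanin-like severing enzyme needed for mouse sperm, rose most (3.97), with 1000.3 in pachytene and 64.0 in leptotene/zygotene. Among genes that bring γ-tubulin to centrosomes and spindles Mzt2, Cdk5rap2, Cep57, Haus1 and Haus4 rose, from 2.18 to 3.31, and Akap9 and Haus2 fell. Of the plus-end proteins Mapre3 rose (2.53) and its relative Mapre2 fell (-2.67).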

How the data were processed

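RNA was read on Affymetrix arrays of 2 designs, 5 arrays each, 1 per group. Per the labels, total RNA was amplified to biotinylated cRNA. The authors deposited 1 linear intensity for each probe set, made with GCOS 1 per the submitters' processing notes. The sources used here give no scaling target. The labels do not say whether samples 1 and 2 of a group are separate preparations, and the samples were read on different array designs. The p-values thus measure only the disagreement between these samples and their probe sets, which cannot be told apart.

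Arrays of a design were brought to a common 2% trimmed mean (deposited trimmed means were 382 to 484 on the first design and 63.4 to 148 on the second). The floor was the 90th percentile over 72 probe sets of chemosensory receptors on the first design, and the median of all signals on the second, which had 15 of them where 20 were required. Between 55.5% and 64.2% of probe sets were above it on the first design, and between 42.7% and 56.0% on the second. Probe sets with 1 gene numbered 20380 of 22690 and 14661 of 22575, those with several 691 and 245, those with none 1555 and 7605, and 64 controls on each were left out. An Entrez gene was matched for 20351 and 14486. The brightest probe set by mean log2 signal stood for a gene, taken from the first design unless none there exceeded the floor. This gave 18193 genes, 15708 above the floor in some group, with 29 members read from the first design and 17 from the second, and 10 members had probe sets on both. The RefSeq gene table holds 57 symbols of the rule, and 8 of them, among them Agbl1, Agbl2 and Ttll2, are not analysed here. The β-tubulins counted include the pseudogene Tubb2a-ps2.

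The error of a log2 difference comes from 100 probe sets present on both designs, as the root mean square of their gaps over the square root of 2. The 95% limit is 1.96 times this error. Genes above the floor on both designs (2610, of which Agbl5, Tuba8 and Tubb6 are members) were tested with limma 3.58.1 in R 4.3.3, on log2 signal set to the floor, with the array design as a block (4 residual degrees of freedom). Genes were called where the p adjusted by Benjamini-Hochberg was under 0.05. The replicate number is the array design, so the block removes only a constant offset between the designs for each gene. Disagreement between the designs in a group difference stays in the spread. On simulated data of pachytene over leptotene/zygotene for 2610 genes the test recovered 0% of genes changed by 1, 72% by 2 and 95.5% by 3 on the log2 scale. The number of arrays limits the precision.

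Values in all 5 groups are given for members called in any comparison, the brightest member of each class and members called by limma. Named genes of the other lists are those called, with Sirt2 added. The members, lists and motifs were chosen with earlier results of these data known. Alternatives were other scalings, floors, choices of probe sets and each design alone. Protein sequences were not used here.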

Additional observations from a re-analysis of the deposited data

How the results depend on the processing

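Of 27 values called 4-fold among the members, 7 kept the call under every alternative run: Agbl5, Hdac6, Ttll1, Ttll6 and Ttll8 in pachytene over leptotene/zygotene, and Hdac6 and Ttll8 in whole testis over somatic mix. Hdac6, Ttll6 and Ttll8 have 1 probe set each, so other choices of probe sets and their design alone could not change their values. The other 20 values lost the call under at least 1 alternative, and 0 changed sign. For most the cause was not tested.

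Counts of members called moved as follows. In pachytene over leptotene/zygotene, 10 rose, and 6 with the mean over probe sets, while 3 fell, and 1 with the floor at the 60th percentile. In pachytene over whole testis, 2 rose, and 1 under quantile normalization, 4 under median scaling, 5 with the values as deposited and 0 with the mean, while 3 fell, and 0 under median scaling and 1 with the mean. In whole testis over somatic mix, 7 rose, and 4 with the mean, while 2 fell, and 1 under quantile normalization, median scaling, the deposited values and the higher floor. In leptotene/zygotene over spermatogonia 0 rose, and 1 with scaling to the shared probe sets. Without replicate 1 or without replicate 2, which leaves 1 design and fewer genes measured, 4 to 7 rose and 0 to 3 fell in pachytene over leptotene/zygotene, 0 to 3 rose and 1 to 2 fell in pachytene over whole testis, and 3 to 4 rose and 0 to 2 fell in whole testis over somatic mix.

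For genes on both designs, the fit with no replicate block called 0 genes in every comparison, against 68 higher and 174 lower in pachytene over leptotene/zygotene and 22 higher and 25 lower in whole testis over somatic mix with the block, and unadjusted p-values under 0.05 numbered 167 and 99 without it. Lower calls in pachytene over leptotene/zygotene were 75 under quantile normalization and 59 with shared scaling. Higher calls in whole testis over somatic mix were 45 with shared scaling and 34 with log2 of signal plus floor. In pachytene over whole testis limma called 0 (353 with unadjusted p under 0.05), 1 lower with signal plus floor, and 6 higher and 23 lower without a filter on dim genes. In leptotene/zygotene over spermatogonia it called 0 (70 unadjusted). Agbl5 in whole testis over somatic mix had an adjusted p of 0.037 under quantile normalization and 0.038 with shared scaling, and Tuba8 had 0.063 with signal plus floor, where the range over its alternatives was 0.035 to 0.85.

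Scaling shifts all genes together: in pachytene over leptotene/zygotene the median of all genes measurable in each group was -0.25, and 0.06 under median scaling, 0.12 with shared scaling and -0.07 under quantile normalization. The share of higher calls among all genes shifts with it, with 1177 higher and 1261 lower as reported, 1504 and 748 under median scaling, 1535 and 604 with shared scaling, 1192 and 813 under quantile normalization and 1178 and 1578 as deposited. In pachytene over whole testis the median was -0.10, and 0.23 under median scaling, with 325 higher and 608 lower as reported and 693 and 357 under median scaling, 477 and 447 with shared scaling and 684 and 827 as deposited. In whole testis over somatic mix 1082 were higher and 855 lower, and 1288 and 666 as deposited. Of the members higher or lower beyond the error limit, 1 changed sign under another scaling: Tube1 in pachytene over whole testis (-0.75, and 0.13 with the values as deposited). Signals near the floor limit Ttll3, Ttll7, Tubb4a and Tubg2.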

Other observations

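Genes of the wider microtubule pathway were also read in whole testis against the somatic mix, where 8 of 43 measured rose and 1 fell. Of these, 3 sever microtubules: Fignl1 had a signal of 868 in whole testis and 136 in the somatic mix (log2 2.67), Spast had 1286 in whole testis and 262 in the somatic mix (2.30), and Katnal2 had 458 in whole testis and 87.7 in the somatic mix (2.39). Tpgs2, a subunit of the Ttll1 polyglutamylase complex, had 896 in whole testis and 197 in the somatic mix (2.18). Haus1, Haus4, Cep57 and Cdk5rap2, which act at centrosomes and spindles, rose by between 2.13 and 2.45, the last as a bound. Stmn3, a neuronal stathmin, was below the floor in whole testis and at 772 in the somatic mix, and fell by at least 3.15 on the log2 scale. In pachytene against whole testis 0 of 39 rose and 2 fell, Akap9 by 2.25 and Mapre2 by 2.77, beside 2.35% of all genes that rose and 4.39% that fell. These are values of 1 array per group with no test, and they were read beside 7.22% of all genes that rose and 5.70% that fell in whole testis against the somatic mix.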
